A study of Mus musculus with 2 samples.

Results

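Dendritic cells that have taken up antigen and received a danger signal mature, and a shared set of genes is known to accompany that change. The 10 such genes described here are Ccr7, Fscn1, Il4i1, Cd40, Relb, Socs2, Il12b, Cd200, Apol7c and Tmem123. They were found by exact gene symbol among the 47730 features of the deposited matrices, and each of the 10 symbols matched 1 feature. Tumours of C57BL6\J mice had been dissociated, and flow cytometry had been used to collect live cells with CD45, the surface protein of white blood cells. Every mouse had undergone ovariectomy, so that the ovaries, the main source of estrogen, were absent in both groups. The E2 group, the usual abbreviation of estradiol, and the Placebo group each held 1 library made by 3′ droplet sequencing, a method that counts unique molecular identifiers (UMIs) per gene and cell barcode. The labels state neither tumour type, age, E2 dose and duration, nor how many mice were pooled for a library.

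Maturation is known to turn a resident sampling cell into a migrating one. The receptor CCR7 guides it along CCL19 and CCL21 into lymph vessels and nodes, fascin bundles actin for the long protrusions of the mature cell, and the non-canonical NF-kappaB pathway, in which CD40 signals to RelB, drives much of the program. Mature cells also carry signals that raise T cell responses, such as the IL-12 p40 chain, and signals that restrain them, such as CD200 and the amino acid oxidase IL4I1. In tumours, cells with this program are known under several names, of which CCR7 dendritic cell (CCR7 DC) is used here.

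The E2 library held 5791 barcodes and 52628133 UMIs, and the Placebo library 3505 barcodes and 24545595 UMIs. After filtering, 5497 E2 and 3392 Placebo barcodes were used, with medians of 7885 UMIs in E2 and 5089 UMIs in Placebo. Cells were assigned by counting how many marker genes of a class showed at least 1 UMI, and no member was a marker. Class names below stand for these gates, that is for cells that look like the type by its markers. The CCR7 DC gate held 125 E2 and 82 Placebo cells with median depths of 11077 UMIs in E2 and 11954 UMIs in Placebo. The type 1 conventional dendritic cell (cDC1) gate held 296 E2 and 59 Placebo cells, the type 2 (cDC2) gate 225 E2 and 91 Placebo cells, and the plasmacytoid dendritic cell (pDC) gate 90 E2 and 28 Placebo cells. All 12 CCR7 DC markers had UMIs in that gate in both libraries, at a summed level of 7356 CPM in E2 and 7266 CPM in Placebo, CPM being UMIs scaled to a gate total of 1000000, a level that gating on these markers fixes. They summed to 48.2 CPM in E2 and 80.6 CPM in Placebo in the cDC1 gate, 197 CPM in E2 and 168 CPM in Placebo in the cDC2 gate and 33.9 CPM in E2 and 80.2 CPM in Placebo in the pDC gate. There were 95 barcodes that occurred in both libraries. They included 0 E2 and 4 Placebo cells of the dendritic gates, 2 of them CCR7 DCs with a median of 24610.5 UMIs here and 568.5 UMIs under the same barcode in the E2 library. Levels below are CPM of the UMIs summed over a gate, and every ratio is E2 over Placebo with a 95% interval that covers counting error only. With 1 library per group the differences have no replicate check, so no test was run. Fewer UMIs in a gate can reflect fewer molecules per cell or fewer cells that express the gene, so shares of cells with a UMI are given as well.

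Among all gated dendritic cells, CCR7 DCs made up 17.0% (125 of 736, interval 14.3 to 19.9%) in the E2 library and 31.5% (82 of 260, 25.9 to 37.6%) in the Placebo library. Of all kept barcodes they were 2.27% (1.90 to 2.70%) in the E2 library and 2.42% (1.93 to 2.99%) in the Placebo library, so the intervals overlapped. The lower share among dendritic cells stood beside larger other dendritic gates. The cDC1 gate held 5.38% of E2 and 1.74% of Placebo barcodes. The cDC2 gate held 4.09% of E2 and 2.68% of Placebo barcodes, and the pDC gate 1.64% of E2 and 0.825% of Placebo barcodes. When every cell was thinned to 2000 UMIs before gating, the CCR7 DC share of dendritic cells was 35.4% in E2 and 52.6% in Placebo.

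All 10 members were at least 1.5-fold higher in CCR7 DCs than in each other dendritic gate, in the E2 library and in the Placebo library. Over all measured genes, 11.3% of 11240 met that rule in the E2 library and 11.2% of 9359 in the Placebo library. The members are known maturation genes, chosen with earlier results of these data known, and the gate uses other markers of mature dendritic cells. A high count of members was therefore built in, and the comparison with all genes is a description. Over a single gate the shares of genes were 26.2% in E2 and 26% in Placebo for cDC1, 21.1% in E2 and 22.0% in Placebo for cDC2, and 23.8% in E2 and 25.5% in Placebo for pDC. The closest case was Cd200 against pDCs, with a ratio of 1.54 (1.31 to 1.81) in the E2 library and 2.08 (1.59 to 2.76) in the Placebo library. With 1 more marker required in every gate, with clusters in place of gates, or after thinning, 9 of 10 members met the rule in the E2 library and 10 of 10 in the Placebo library. A median CCR7 DC showed 8 of the 10 members in either library, against 1 in cDC1, 2 in cDC2 and 2 in pDC. At least 5 members were seen in 119 of 125 E2 and 80 of 82 Placebo CCR7 DCs, but in 0 of 296 E2 and 1 of 59 Placebo cDC1.

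**Figure D1:**
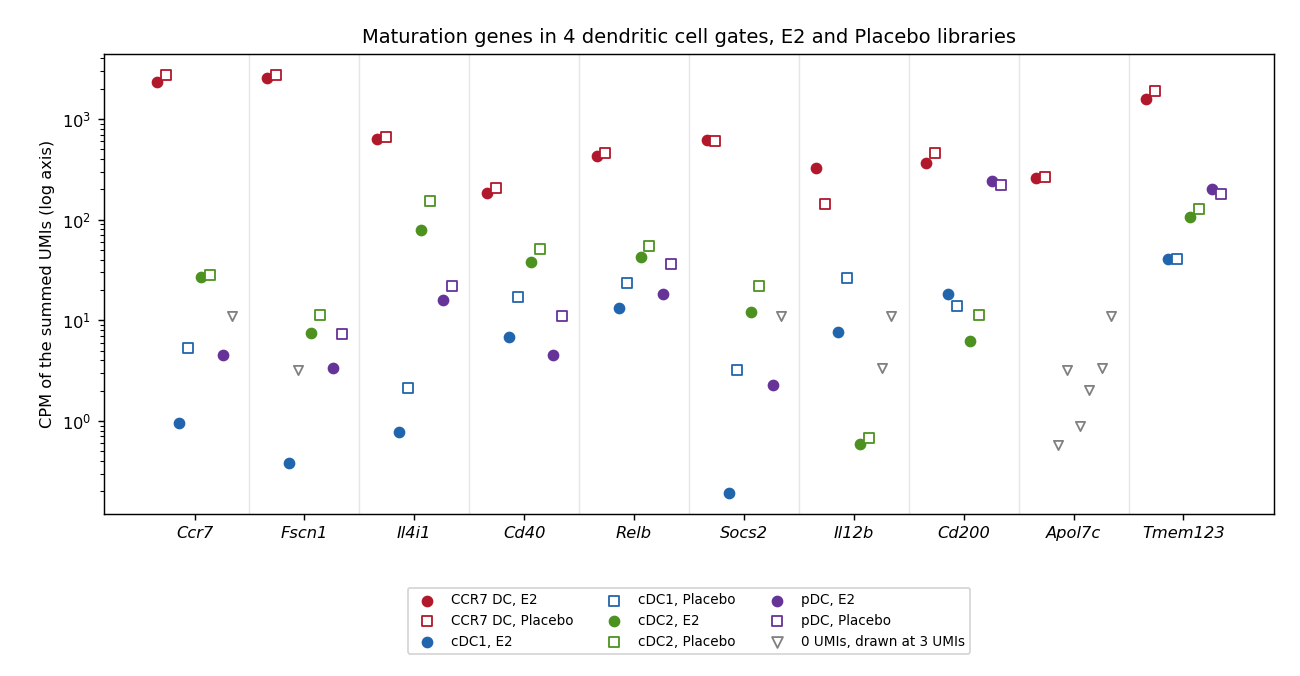
Level of each maturation gene in the 4 dendritic cell gates, as CPM of the summed UMIs on a log axis. Filled circles are the E2 library, open squares the Placebo library, 1 point per gate and library, and grey triangles mark 0 UMIs, drawn at the level of 3 UMIs. The CCR7 DC points are the highest for all 10 genes, and E2 and Placebo points of that gate lie close together except for Il12b.

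Ccr7 and Fscn1, whose products act in migration, were the most abundant members together with Tmem123. Ccr7, the homing receptor, lies at chr11:99144196-99155077 on the minus strand (GRCm38, the assembly that mm10 names). Its level in CCR7 DCs was 2319 CPM in the E2 library and 2739 CPM in the Placebo library, and 98.4% of E2 and 97.6% of Placebo cells had a UMI. In cDC1 it was 0.963 CPM in E2 and 5.30 CPM in Placebo, and in cDC2 26.6 CPM in E2 and 28.1 CPM in Placebo. Monocytes and macrophages, at a similar depth of 10059 UMIs in E2 and 9710 UMIs in Placebo per cell, showed a Ccr7 UMI in 0.808% of E2 and 1.20% of Placebo cells, which serves as the background in a class that largely lacks the gene. B cells were the next class, with 762 CPM in E2 and 553 CPM in Placebo, and T cells followed with 47.3 CPM in E2 and 51.9 CPM in Placebo. CCR7 DCs held 84.3% of the Ccr7 UMIs of the E2 library and 73.1% of those of the Placebo library.

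Fscn1 encodes fascin and lies at chr5:142960343-142973185 on the plus strand. CCR7 DCs had 2571 CPM in E2 and 2726 CPM in Placebo, with UMIs in 92.8% of E2 and 93.9% of Placebo cells. Every other immune gate stayed at or under 11.4 CPM. The non-immune gate, which holds cells that passed the CD45 sort but show markers of connective tissue, vessel, epithelial, glial or pigment cells, had 138 CPM in E2 and 83 CPM in Placebo. Tmem123, which encodes a mucin-like membrane protein and lies at chr9:7764041-7794333 on the plus strand, was present in all 13 gated classes. It reached 1567 CPM in E2 and 1881 CPM in Placebo CCR7 DCs, but pDCs still had 202 CPM in E2 and 179 CPM in Placebo, B cells 209 CPM in E2 and 244 CPM in Placebo and T cells 149 CPM in E2 and 189 CPM in Placebo.

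Il4i1 encodes a secreted oxidase of aromatic amino acids and lies at chr7:44816387-44840809 on the plus strand, where it overlaps Nup62 on the same strand. CCR7 DCs had 634 CPM in E2 and 668 CPM in Placebo, and cDC2 came next with 78.7 CPM in E2 and 153 CPM in Placebo. Cd200, whose product restrains cells that bear the CD200 receptor, lies at chr16:45382135-45409053 on the minus strand. Its CCR7 DC level was 368 CPM in E2 and 462 CPM in Placebo, not far above the 239 CPM in E2 and 223 CPM in Placebo of pDCs, and the non-immune gate had 143 CPM in E2 and 90.4 CPM in Placebo. Both genes were low in cDC1, Il4i1 at 0.771 CPM in E2 and 2.12 CPM in Placebo and Cd200 at 18.1 CPM in E2 and 13.8 CPM in Placebo.

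Cd40, the receptor for the T cell ligand CD40L, lies at chr2:165055627-165072948 on the plus strand, and Relb, the non-canonical NF-kappaB subunit, at chr7:19606217-19629438 on the minus strand. These 2 genes were less restricted. Cd40 had 184 CPM in E2 and 208 CPM in Placebo CCR7 DCs, 38.2 CPM in E2 and 50.9 CPM in Placebo cDC2, 53.7 CPM in E2 and 59.1 CPM in Placebo B cells and 30.2 CPM in E2 and 31.6 CPM in Placebo monocytes and macrophages. Monocytes and macrophages held 53.0% of the Cd40 UMIs in E2 and 34.2% in Placebo, and CCR7 DCs 22.3% in E2 and 28.0% in Placebo. Relb had 427 CPM in E2 and 462 CPM in Placebo CCR7 DCs, and a UMI in 96.0% of E2 and 95.1% of Placebo cells. It was seen in all 13 gated classes, except in E2 basophils, where 0 UMIs were counted in 27 cells.

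Socs2 encodes a suppressor of cytokine signalling and lies at chr10:95385362-95417180 on the minus strand. It had a second peak outside the dendritic lineage. CCR7 DCs had 621 CPM in E2 and 607 CPM in Placebo, and mast cells had nearly as much, 569 CPM in E2 and 584 CPM in Placebo, with UMIs in 80.6% of E2 and 79.0% of Placebo mast cells. Basophils had 279 CPM in E2 and 230 CPM in Placebo. cDC1, by contrast, had 1 Socs2 UMI in 296 E2 cells and 3 UMIs in 59 Placebo cells.

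**Figure D2:**
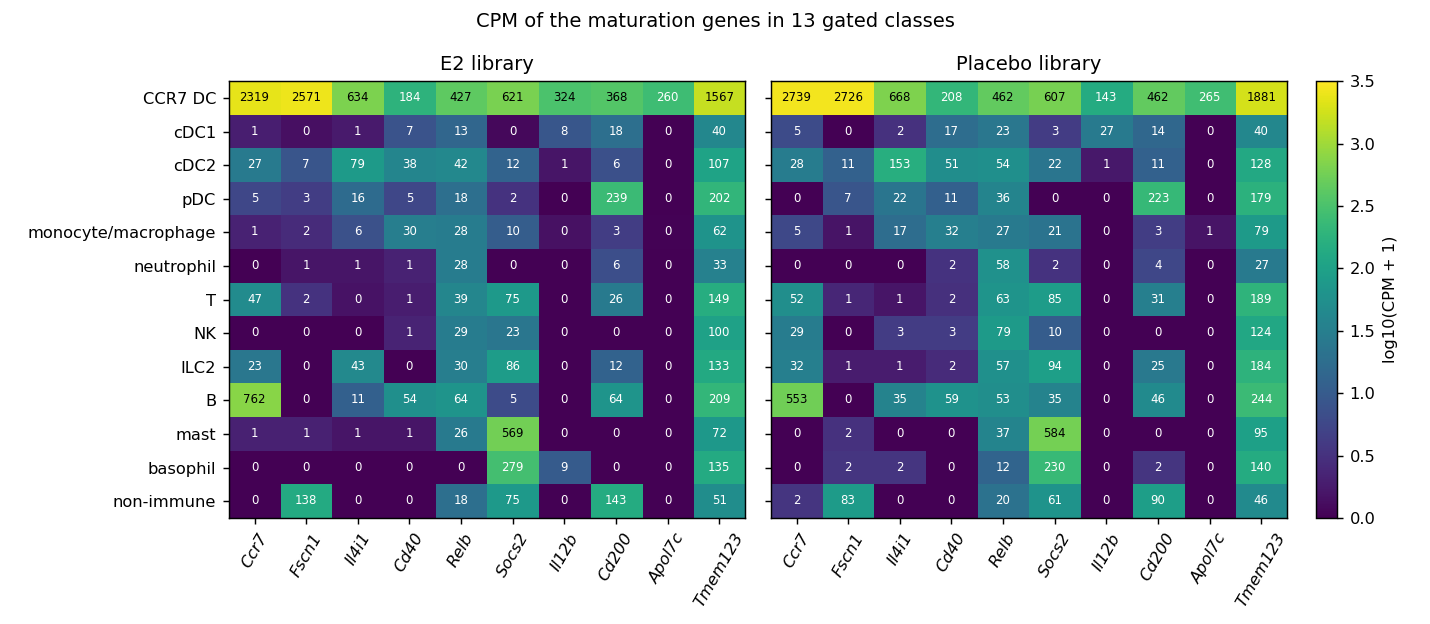
Heat map of the CPM of each maturation gene in 13 gated cell classes, E2 library left and Placebo library right. Numbers are CPM rounded to whole numbers and colour is log10(CPM + 1). CCR7 DCs lead in every column, Ccr7 also stands out in B cells (762 CPM in E2 and 553 CPM in Placebo) and Socs2 in mast cells (569 CPM in E2 and 584 CPM in Placebo).

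At full depth, Il12b and Apol7c differed from the other 8 members in that most CCR7 DCs had none. In cells thinned to 2000 UMIs most also lacked Cd40, which was seen in 18.6% of E2 and 27.8% of Placebo cells. Cd200 was then seen in 44.1% of E2 and 51.9% of Placebo cells. Il12b encodes p40, the chain that IL-12 and IL-23 share, and lies at chr11:44400063-44414033 on the plus strand. Its UMIs were found in 33 of 125 E2 CCR7 DCs (26.4%, 18.9 to 35.0%) and 13 of 82 Placebo CCR7 DCs (15.9%, 8.72 to 25.6%). After thinning to 2000 UMIs the shares were 20.3% of 118 E2 cells and 10.1% of 79 Placebo cells, with 7 E2 and 3 Placebo cells left out as shallower. Among monocytes and macrophages 1 of 1979 E2 and 0 of 752 Placebo cells had an Il12b UMI, and by the limit of 3 counts 0 of 752 allows a share of cells with a UMI of up to 0.399%. Apol7c, a mouse apolipoprotein L gene at chr15:77524852-77533316 on the minus strand, was found in 28.0% (20.3 to 36.7%) of E2 and 22.0% (13.6 to 32.5%) of Placebo CCR7 DCs. It had 0 UMIs in cDC1, cDC2 and pDC of both libraries. Against a limit of 3 UMIs per gate, its CCR7 DC level was at least 450-fold higher than in cDC1 in the E2 library and at least 83.2-fold higher in the Placebo library.

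The bases just before the transcription starts of 4 members are shown. Il12b is the member that differed most between the libraries in CCR7 DCs, Apol7c and Il4i1 hold motif matches, and Fscn1 is among the most abundant. They are the 250 bases before the RefSeq start on GRCm38.p6, written 5′ to 3′ on the strand of the gene, and capitals mark motif matches. The RefSeq start of Il4i1 lies within the longer span annotated for the gene.

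Il12b, chr11:44399813-44400062, plus strand: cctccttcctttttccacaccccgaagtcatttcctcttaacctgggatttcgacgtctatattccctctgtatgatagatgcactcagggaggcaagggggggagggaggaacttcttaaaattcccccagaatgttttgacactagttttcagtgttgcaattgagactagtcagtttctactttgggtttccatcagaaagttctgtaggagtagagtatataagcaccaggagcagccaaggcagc
Apol7c, chr15:77533316-77533565, minus strand: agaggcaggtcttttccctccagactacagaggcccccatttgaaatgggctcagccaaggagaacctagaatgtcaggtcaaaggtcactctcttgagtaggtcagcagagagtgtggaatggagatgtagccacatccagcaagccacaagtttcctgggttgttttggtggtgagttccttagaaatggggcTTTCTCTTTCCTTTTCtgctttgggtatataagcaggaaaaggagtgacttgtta
Il4i1, chr7:44836038-44836287, plus strand: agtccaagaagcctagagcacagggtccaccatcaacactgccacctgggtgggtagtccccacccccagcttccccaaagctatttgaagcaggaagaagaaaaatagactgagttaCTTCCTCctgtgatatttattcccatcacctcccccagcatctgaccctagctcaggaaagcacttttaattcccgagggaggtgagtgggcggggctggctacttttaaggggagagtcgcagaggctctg
Fscn1, chr5:142960105-142960354, plus strand: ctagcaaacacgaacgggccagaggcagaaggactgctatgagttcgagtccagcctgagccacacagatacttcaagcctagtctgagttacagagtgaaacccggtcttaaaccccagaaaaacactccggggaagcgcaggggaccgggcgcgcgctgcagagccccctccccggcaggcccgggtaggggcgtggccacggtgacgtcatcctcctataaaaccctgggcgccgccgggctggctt

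RefSeq promoters were matched for 6 members, Il12b, Apol7c, Il4i1, Fscn1, Cd200 and Tmem123. These were searched on both strands for 4 motifs. The interferon response motif GAAANNGAAA matched in Apol7c, at 2 places that overlap in 4 bases between 55 and 40 bases before the start, and 2.98% of all 32851 promoters hold it in the same window. The ETS motif GAGGAAG matched in Il4i1, and 10.6% of promoters hold it. The kappaB motif was GGGRNNYYCC, where R is A or G, Y is C or T and N is any base. This motif, held by 7.25% of promoters, and the AP-1 motif TGANTCA, held by 6.75%, matched in 0 of the 6 members. Shorter or diverged forms of the motifs were not searched. A match or its absence describes these letters only.

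E2 and Placebo CCR7 DCs carried 9 of the 10 members at levels within 1.5-fold of each other. Il12b was the exception, at 324 CPM in E2 and 143 CPM in Placebo, a ratio of 2.27 (1.88 to 2.76). Thus 1 of 10 members was higher by 1.5-fold, against 7.18% of 7491 genes, and 0 of 10 were lower by 1.5-fold, against 14.5%. By any amount 8 of 10 were lower in E2, against 60.6% of genes. The median log2 difference of the 10 members was -0.10, and that of all genes was -0.09. Scaling to the median gene in place of the UMI total moved every log2 value in this gate up by 0.13, after which Fscn1, Il4i1, Relb and Apol7c were higher in E2 too, so that 4 of 10 members and 48.2% of all genes were lower, while the 1.5-fold calls became 10.6% higher and 9.60% lower over all genes.

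Ccr7 had a ratio of 0.847 (0.805 to 0.891), Tmem123 of 0.833 (0.784 to 0.886) and Cd200 of 0.796 (0.702 to 0.903). These were the 3 lowest, and 1 Placebo cell weighed on Ccr7, since it held 281 of 2690 UMIs. Without the barcodes that occurred in both libraries, an alternative chosen after seeing the data, the log2 difference of Ccr7 was -0.12 in place of -0.24 and that of Cd200 -0.09 in place of -0.32. The ratio of Fscn1 was 0.943 (0.898 to 0.991), and the intervals of Il4i1, Relb, Socs2 and Apol7c all included 1. Cd40 had a ratio of 0.885 (0.736 to 1.07), and its log2 difference of -0.17 became 0.15 without the shared barcodes. In the Placebo library 1 cell held 47 of the 204 Cd40 UMIs.

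**Figure D3:**
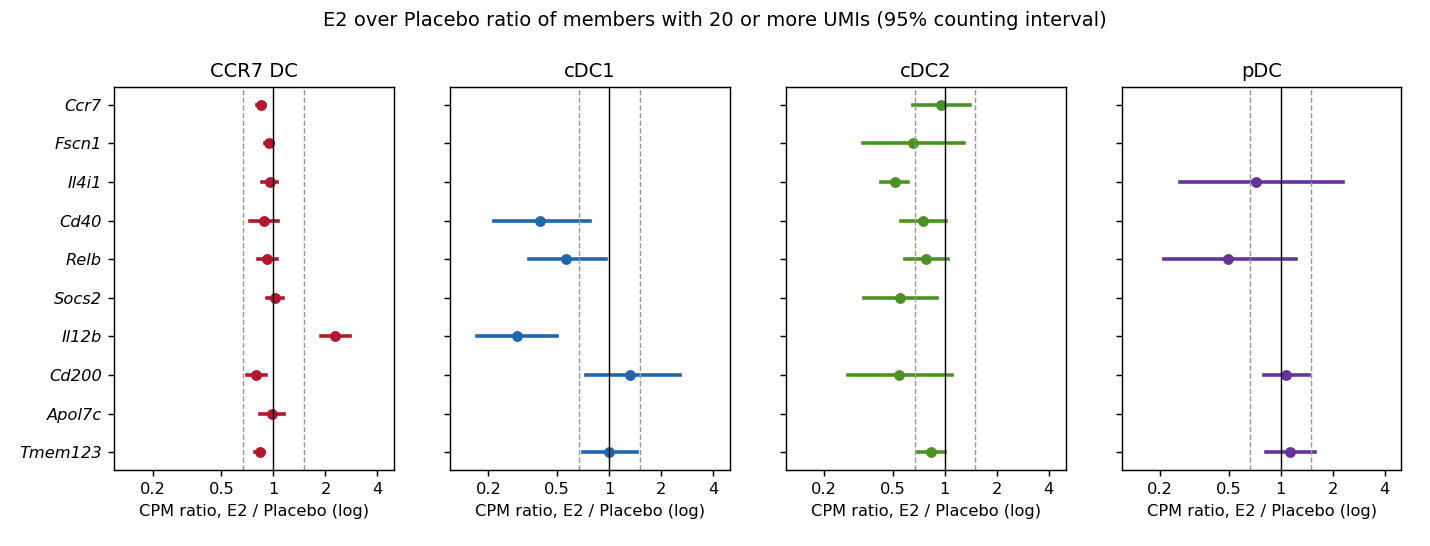
Ratio of CPM in the E2 library over the Placebo library for each maturation gene whose 2 libraries together gave 20 UMIs or more, in each of 4 dendritic cell gates. Points are ratios and bars 95% counting intervals on a log axis, and dashed lines mark 1.5-fold. In CCR7 DCs only Il12b lies beyond a dashed line, at 2.27, whereas in cDC1 it lies at 0.291.

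The Il12b difference went with the number of strongly positive cells. At least 10 UMIs were counted in 15 of 125 E2 CCR7 DCs and in 3 of 82 Placebo CCR7 DCs. The 3 richest cells held 78, 44 and 41 UMIs in E2 and 63, 35 and 12 UMIs in Placebo, which was 33.3% of all Il12b UMIs of the E2 gate and 78.6% of those of the Placebo gate. Leaving out the richest cell of each library raised the log2 difference to 1.67, against 1.13 with all cells. Positive cells were deeper in E2, with a median of 16009 UMIs against 10481 in cells without Il12b, whereas in Placebo the medians were 11971 UMIs in positive cells and 11937 UMIs in the others.

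**Figure D4:**
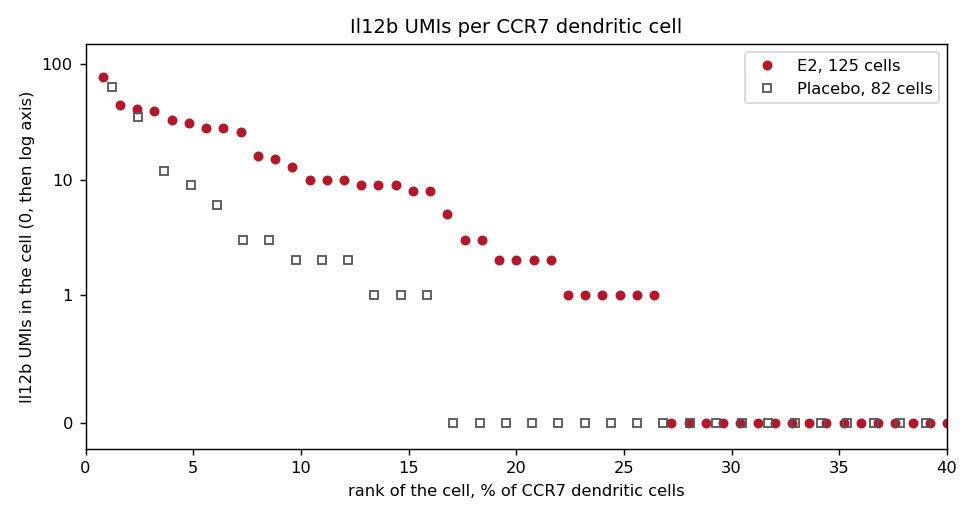
Il12b UMIs in each CCR7 DC, ordered by UMIs within its library, with the rank as a percent of the gate on the x axis (cut at 40%) and UMIs on an axis that is logarithmic above 1. In the E2 library 33 of 125 cells had a UMI and 15 had at least 10, and in the Placebo library 13 of 82 had a UMI and 3 had at least 10.

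Il12b was highest in CCR7 DCs that showed 2 or more cDC1 markers. CCR7 DCs with 0, 1 and 2 or more of the 10 cDC1 markers numbered 41, 49 and 35 in the E2 library and 30, 44 and 8 in the Placebo library. Across these steps Il12b was 14.8, 286 and 540 CPM in E2 and 54.8, 103 and 526 CPM in Placebo. Cells with 2 or more markers were at similar Il12b levels in both libraries, although in Placebo 2 of the 8 cells held every UMI of that step, and they made up 35 of 125 E2 and 8 of 82 Placebo CCR7 DCs. The cDC1 markers summed to 443 CPM from 10 of 10 markers in E2 CCR7 DCs and 558 CPM from 5 of 10 in Placebo. Most of the sum was Irf8, a transcription factor that cDC1 share with pDCs, at 388 CPM in E2 and 523 CPM in Placebo, and the other 9 markers summed to 55.6 CPM in E2 and 34.6 CPM in Placebo. Irf8 was the 1 marker seen in 41 of 49 E2 and 37 of 44 Placebo cells of the middle step. Monocyte and macrophage markers summed to 264 CPM from 12 of 12 markers in E2 and 134 CPM from 8 of 12 in Placebo, and their part in the differences between libraries was not tested. Depth moved with the steps, with medians of 7688, 11968 and 16699 UMIs in E2 and 7850, 12784 and 17382 UMIs in Placebo, and its part in the pattern was not tested. In cells thinned to 2000 UMIs, Il12b was seen in 0 of 36, 12 of 47 and 12 of 35 E2 cells and in 1 of 27, 6 of 44 and 1 of 8 Placebo cells.

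Cd40 followed the same steps in E2, at 91.9, 167 and 254 CPM, and in Placebo it was 139, 238 and 218 CPM. In thinned cells it was seen in 5 of 36, 10 of 47 and 7 of 35 E2 cells and in 4 of 27, 15 of 44 and 3 of 8 Placebo cells, so that in E2 the top step was not above the middle one. Apol7c had another order, highest in cells with 1 cDC1 marker, at 160, 466 and 111 CPM in E2 and 3.65, 438 and 24.3 CPM in Placebo. These levels rest on few cells. Apol7c UMIs were seen in 7 of 41, 21 of 49 and 7 of 35 E2 cells and in 1 of 30, 16 of 44 and 1 of 8 Placebo cells. The richest cell held 84 of the 393 Apol7c UMIs of the gate in E2 and 111 of 260 in Placebo. Il12b and Apol7c were seen together in 14 of 125 E2 cells and 3 of 82 Placebo cells. Cells with Apol7c but no Il12b numbered 21 in E2 and 15 in Placebo, and cells with neither 71 in E2 and 54 in Placebo.

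Members also varied with the number of CCR7 DC gate markers that a cell showed. With 5 to 6, 7 to 8 and 9 to 12 of the 12 markers, Fscn1 was 1230, 2053 and 2949 CPM in E2 and 1781, 2598 and 3058 CPM in Placebo. The Il4i1 level ran the other way, at 1066, 774 and 525 CPM in E2 and 955, 709 and 566 CPM in Placebo. The share of cells with an Il4i1 UMI rose instead. In E2 they were 11 of 17, 32 of 36 and 65 of 72 cells. In Placebo they were 14 of 19, 16 of 19 and 43 of 44 cells. Il12b was highest in the top step, with 0, 141 and 441 CPM in E2 and 5.33, 5.29 and 228 CPM in Placebo. The steps hold 17, 36 and 72 E2 cells and 19, 19 and 44 Placebo cells, and the lowest step was shallow in E2, at a median of 4440 UMIs. Just outside the gate, cDC1 and cDC2 cells with 3 to 4 of the markers had 168 CPM of Ccr7 in E2 and 208 CPM in Placebo, and 221 CPM in E2 and 202 CPM in Placebo of Il4i1, in 14 E2 and 8 Placebo cells. Ccr7 UMIs came from 4 of the 14 E2 and 3 of the 8 Placebo cells, and those of Il4i1 from 8 of the 14 E2 and 2 of the 8 Placebo cells.

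**Figure D5:**
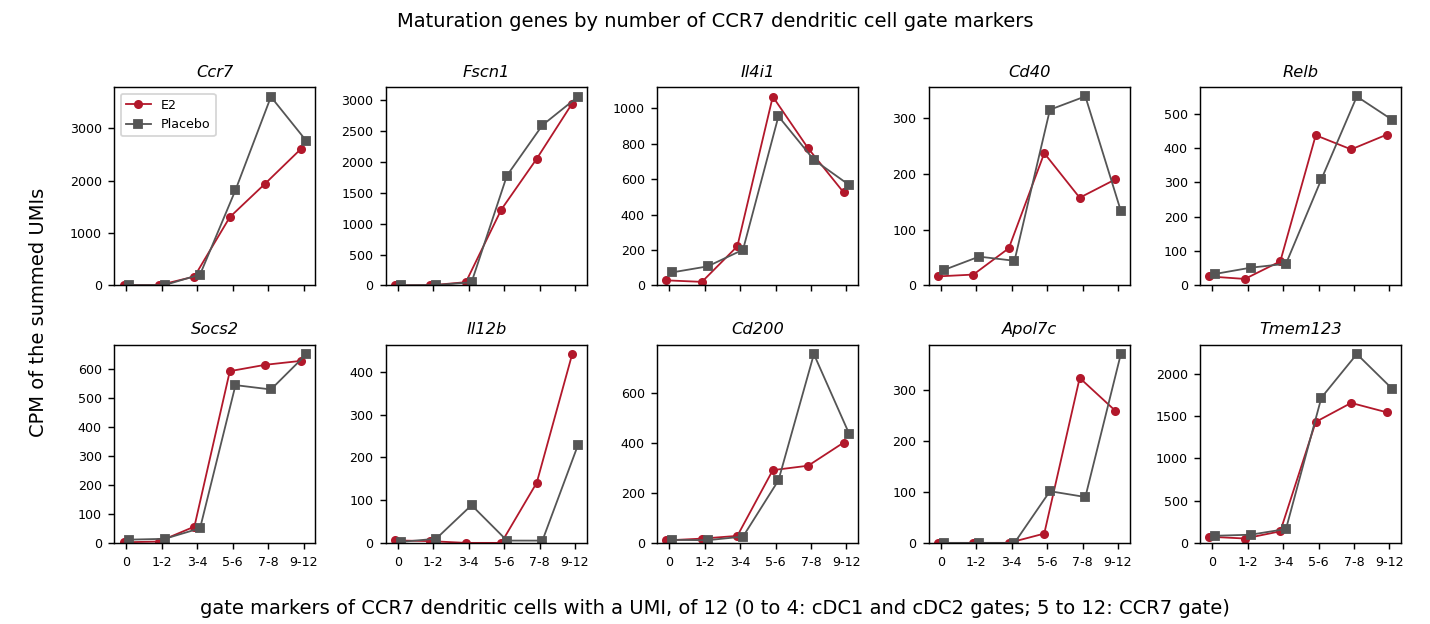
CPM of each maturation gene by the number of the 12 CCR7 DC gate markers with a UMI in the cell, E2 in red circles and Placebo in grey squares. Steps 0 to 4 are cells of the cDC1 and cDC2 gates and steps 5 to 12 cells of the CCR7 DC gate. Il4i1 is highest at 5 to 6 markers (1066 CPM in E2 and 955 CPM in Placebo), while Fscn1 is highest at 9 to 12 (2949 CPM in E2 and 3058 CPM in Placebo). Within the CCR7 DC gate, the share of cells with an Il4i1 UMI, not drawn, was lowest at 5 to 6 markers in both libraries.

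In cDC2, all 8 members with at least 20 UMIs were lower in E2, against 62% of 9584 genes, and 4 of the 8 were lower by 1.5-fold, against 12.7%. None was higher by 1.5-fold, against 7.36%. Under the median scaling 7 of the 8 were lower, 3 of them by 1.5-fold, and 47.0% of all genes were lower. Il4i1 had 78.7 CPM in E2 and 153 CPM in Placebo, a ratio of 0.513 (0.428 to 0.615), and UMIs in 45 of 225 E2 and 31 of 91 Placebo cells. Its 3 richest cells held 96 of 266 UMIs in E2 and 100 of 229 in Placebo. Socs2 followed with a ratio of 0.549 (0.339 to 0.896), 12.1 CPM in E2 and 22.1 CPM in Placebo. The ratio of Cd200 was 0.546 (0.274 to 1.10) and that of Fscn1 0.650 (0.337 to 1.28), both with intervals that included 1. At least 5 members were seen in 11 of 225 E2 and 9 of 91 Placebo cDC2. Ccr7 in cDC2 was set by few cells, 1 of which held 31 of 90 UMIs in E2 and 1 of which held 30 of 42 in Placebo. Its log2 difference of -0.06 became 0.61 without the richest cell of each library. It was -1.23 after thinning, -1.01 without doublet removal and 0.84 with 3 times as many doublets removed.

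In cDC1, 4 of 5 measured members were lower in E2, against 58.2% of 9527 genes, 3 of them by 1.5-fold, against 15.1%. The 4 include Tmem123, at 40.3 CPM in E2 and 40.3 CPM in Placebo. None was higher by 1.5-fold, against 10.6%. Under the median scaling 3 of the 5 were lower, all by 1.5-fold, and 45.4% of all genes were lower. Il12b had 7.71 CPM in E2 and 26.5 CPM in Placebo, a ratio of 0.291 (0.172 to 0.50), opposite to its direction in CCR7 DCs. The counts were small, 40 UMIs in 11 of 296 E2 cells and 25 UMIs in 4 of 59 Placebo cells. Cd40 had 6.74 CPM in E2 and 17.0 CPM in Placebo, a ratio of 0.398 (0.214 to 0.769), and Relb 13.1 CPM in E2 and 23.3 CPM in Placebo, a ratio of 0.562 (0.343 to 0.954). Other marker lists differed between the libraries in this gate. Cycling markers summed to 665 CPM from 4 of 4 markers in E2 and 247 CPM from 4 of 4 in Placebo, monocyte and macrophage markers to 776 CPM from 12 of 12 in E2 and 503 CPM from 9 of 12 in Placebo, and cDC2 markers to 102 CPM from 9 of 10 in E2 and 223 CPM from 7 of 10 in Placebo. Their part in these values was not tested. In pDCs, 4 members were measured and 2 were lower in E2, against 53.9% of 6326 genes. Of these Relb was lower by 1.5-fold, against 15.2% of genes, with an interval of its ratio from 0.211 to 1.22, and 0 were higher by 1.5-fold, against 11.9%.

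Around the members, 19 genes of NF-kappaB and CD40 signalling were measured in CCR7 DCs. Of them 16 were lower in E2, against 60.6% of all genes, and 4 by 1.5-fold, against 14.5%. Their median log2 difference was -0.29, where the median of all genes was -0.09. Under the median scaling 14 of 19 were still lower, against 48.2% of all genes, and 2 by 1.5-fold, against 9.60%. Bcl3, a nuclear I-kappaB protein, had 29.8 CPM in E2 and 64.1 CPM in Placebo, a ratio of 0.464 (0.309 to 0.691). Traf3, an adaptor that restrains the non-canonical branch, had 48.3 CPM in E2 and 79.4 CPM in Placebo, a ratio of 0.608 (0.436 to 0.848), and Traf6, an adaptor of CD40, 47.0 CPM in E2 and 73.3 CPM in Placebo, a ratio of 0.641 (0.455 to 0.902). The abundant inhibitor Nfkbia stood at 1351 CPM in E2 and 1570 CPM in Placebo, Rel, an NF-kappaB subunit, at 995 CPM in E2 and 1175 CPM in Placebo, and Traf1, an adaptor, at 781 CPM in E2 and 734 CPM in Placebo. In cDC1, 18 of the 19 were lower in E2, 10 of them by 1.5-fold, where 58.2% of all genes were lower and 15.1% by 1.5-fold. Under the median scaling 17 were lower, 6 of them by 1.5-fold, against 45.4% and 9.56% of all genes.

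Of the 10 co-stimulatory and co-inhibitory partners, 6 were lower and 4 higher in E2 CCR7 DCs, where 60.6% of all genes were lower, and under the median scaling 5 were lower and 5 higher, where 48.2% were lower. The activation marker Cd83 had 740 CPM in E2 and 798 CPM in Placebo, Cd274, which encodes PD-L1, 280 CPM in E2 and 349 CPM in Placebo, and the CD28 ligand Cd86 208 CPM in E2 and 283 CPM in Placebo. Beyond 1.5-fold lay Tnfsf9, which encodes the 4-1BB ligand, with 167 CPM in E2 and 110 CPM in Placebo and a ratio of 1.52 (1.21 to 1.92), and Cd70, the ligand of CD27, with 49.0 CPM in E2 and 31.6 CPM in Placebo and a ratio of 1.55 (1.01 to 2.44). Thus 2 of 10 were higher by 1.5-fold, against 7.18% of all genes, and 0 lower, against 14.5%.

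Among 14 cytokine genes, 9 were measured in CCR7 DCs, 3 higher and 2 lower in E2 by 1.5-fold, against 7.18% and 14.5% of all genes, and the counts were the same under the median scaling, against 10.6% and 9.60%. Il12a, which encodes the p35 partner of p40 in IL-12, and Il23a, which encodes its p19 partner in IL-23, both had 0 UMIs in CCR7 DCs of either library. Ebi3, which encodes the IL-27 chain related to p40, had 76.1 CPM in E2 and 33.6 CPM in Placebo, a ratio of 2.26 (1.53 to 3.44). Ccl5, a chemokine for T cells, had 5450 CPM in E2 and 2990 CPM in Placebo, a ratio of 1.82 (1.75 to 1.90). Ccl17, a ligand of CCR4, had 1495 CPM in E2 and 910 CPM in Placebo, a ratio of 1.64 (1.52 to 1.78). Il1b had 174 CPM in E2 and 361 CPM in Placebo, a ratio of 0.481 (0.409 to 0.566), and Cxcl10, an interferon-induced chemokine, 23.2 CPM in E2 and 65.2 CPM in Placebo, a ratio of 0.355 (0.228 to 0.545).

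Of 13 migration and cytoskeleton genes none lay beyond 1.5-fold, and 10 were lower in E2, or 7 under the median scaling, against 60.6% of all genes, or 48.2% under that scaling. The most abundant was Actg1, a cytoplasmic actin, at 6417 CPM in E2 and 6868 CPM in Placebo, followed by Samsn1 at 1939 CPM in E2 and 2131 CPM in Placebo and by Marcks, an actin-binding membrane protein, at 1324 CPM in E2 and 1664 CPM in Placebo. Among the 8 STAT5 and cytokine feedback genes, 6 were lower in E2, or 4 under the median scaling, against the same shares of all genes. The most abundant were Jak2, a kinase of cytokine receptors, at 492 CPM in E2 and 610 CPM in Placebo, and Csf2rb, the shared receptor chain for GM-CSF, at 467 CPM in E2 and 570 CPM in Placebo. Cish, a STAT5 target related to Socs2, had 72.8 CPM in E2 and 131 CPM in Placebo, a ratio of 0.554 (0.426 to 0.720), whereas Socs2 itself had a ratio of 1.02 (0.923 to 1.14). In the apolipoprotein L family the 10 relatives of Apol7c were near or at 0 in CCR7 DCs, with 12 UMIs in E2 and 5 UMIs in Placebo of Apol10b and 0 UMIs in E2 and 2 UMIs in Placebo of Apol8. Of the distinct 31-base words in the last 600 bases of Apol7c transcripts, 27.7% also occur in Apol7a, Apol7b, Apol7e or Gm8221. A read made up only of such words cannot be assigned to 1 gene, and the share of such reads was not measured. For Socs2, 12.5% of the words occur in other genes, 855 in number. Tryptophan catabolism genes were scarce beside Il4i1, with 2 UMIs in E2 and 0 UMIs in Placebo of Ido1 and 2 UMIs in E2 and 1 UMI in Placebo of Ido2 in CCR7 DCs.

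Cd40lg, Cd200r1, Cd200r3, Il12rb1 and Il12rb2, genes of ligands and receptors of the members, were each higher in at least 1 other class than in CCR7 DCs. Cd40lg, the CD40 ligand gene, had 58.6 CPM in E2 and 62.5 CPM in Placebo T cells and 85.5 CPM in E2 and 53.9 CPM in Placebo type 2 innate lymphoid cells, and 0 UMIs in CCR7 DCs. Cd200r1, the CD200 receptor gene, had 79.0 CPM in E2 and 82.4 CPM in Placebo cDC2, 90.3 CPM in E2 and 87.5 CPM in Placebo pDCs and 39.2 CPM in E2 and 38.6 CPM in Placebo monocytes and macrophages, against 4 UMIs in E2 and 1 UMI in Placebo CCR7 DCs. The related Cd200r3, itself 1 of the 6 basophil gate markers, was high in basophils, at 911 CPM in E2 and 994 CPM in Placebo, and in mast cells, at 502 CPM in E2 and 515 CPM in Placebo. Il12rb2, a chain of the IL-12 receptor, had 20.04 CPM in E2 and 50.7 CPM in Placebo NK cells, from 16 UMIs in each library. In CCR7 DCs it had 4 UMIs in E2 and 15 UMIs in Placebo, or 2.65 CPM in E2 and 15.3 CPM in Placebo, which in Placebo was above the 11.1 CPM of T cells. Il12rb1 had 21.9 CPM in E2 and 35.0 CPM in Placebo T cells. CCR7 DCs had 0 UMIs of the CCR7 ligand gene Ccl19 in both libraries.

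Genes were also ranked by how alike their pattern was to that of a member, as Pearson's r of log2(CPM + 10) over 26 points, 13 classes in each of 2 libraries. The points share libraries and classes, so r is a description. Arhgap28 (r = 0.991), Cacnb3 (0.978) and Adcy6 (0.962) were most like Fscn1, and Cacnb3 was itself a gate marker. Dkk2 (0.999), Myl7 (0.997) and Clu (0.996) were most like Apol7c, and Bcl2l14 (0.973), Mab21l3 (0.969) and Strip2 (0.958) most like Il12b. Outside CCR7 DCs, Apol7c had UMIs only in monocytes and macrophages among the 13 classes, 1 in E2 and 4 in Placebo. Its r therefore rests on the CCR7 DC points of the 2 libraries, and any gene restricted to that gate gives a value near 1. Nfkb2 (0.901), which encodes the partner of RelB, headed the list for Relb, ahead of Plxnc1 (0.887) and the gate marker Mreg (0.875). For Ccr7 they were Capsl (0.906), Cd1d1 (0.903) and H2-Eb2 (0.902). The leading genes were Uap1 (0.901) for Socs2, Wnt11 (0.892) for Il4i1, Sh3bp4 (0.882) for Cd200, Fam177a (0.877) for Tmem123 and Zbtb18 (0.862) for Cd40.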

How the data were processed

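The authors deposited raw UMI counts per gene and barcode of 2 libraries. They were made with Cell Ranger 3.1.0 on mm10, per the submitters' processing notes. Barcodes with under 200 genes were removed (26 in E2, 15 in Placebo), then those with the highest Scrublet scores (scanpy 1.11.5), 0.8% per 1000 barcodes, that is 268 in E2 and 98 in Placebo, because the automatic threshold marked only 1.49% in E2 and 0.0860% in Placebo.

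A CCR7 DC needed 5 of 12 markers, a cDC1 6 of 10, a pDC 6 of 11, and a cDC2 3 of 10 with 3 of 5 general dendritic and at most 6 of 12 monocyte and macrophage markers. Barcodes that passed conflicting gates were left out. The marker numbers were set after seeing marker counts, not member levels. Summed UMIs were scaled to CPM. Log2 differences used a pseudocount of 10 CPM, which understates low genes, and list counts needed 20 UMIs over both libraries. Ratio intervals are exact conditional-binomial and share intervals Clopper-Pearson, both 95%. They cover counting error only. The ratio intervals were checked on simulated counts that varied by counting error alone, so that check cannot cover UMIs concentrated in few cells.

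The 10 members, all lists and the rule for naming genes were chosen with earlier results of these data known. Named were the members, up to 3 genes most like each (at least 100 UMIs, ribosomal protein genes, receptor segments and Gm or Rik models left out), and in each list up to 5 of the most abundant and up to 3 of the most different. Coordinates are from GENCODE M21, promoters from RefSeq. Alternatives were other doublet numbers, gates, clusters (leidenalg 0.10.2), thinning, scaling, pseudocount and count minimum. Leaving out shared barcodes or the richest cell was chosen after seeing the data. Of the 95 shared barcodes, 59 differed in depth by under 10 times between the libraries.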

Additional observations from a re-analysis of the deposited data

Results flagged for a closer look

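Il12b moved in opposite directions in 2 dendritic gates. Its log2 difference of E2 over Placebo was 1.13 in CCR7 DCs and -1.04 in cDC1. The difference between the gates was not tested, since each group held 1 library, and the cDC1 value rests on 40 E2 and 25 Placebo UMIs, of which 3 cells held 31 in E2 and 24 in Placebo. Cells with a UMI made up 3.72% (1.87 to 6.55%) of E2 and 6.78% (1.88 to 16.5%) of Placebo cDC1, and these intervals overlap. In CCR7 DCs the shares were 26.4% (18.9 to 35.0%) in E2 and 15.9% (8.72 to 25.6%) in Placebo, which overlap too. There 3 cells held 163 of 490 UMIs in E2 and 110 of 140 in Placebo.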

How the results depend on the processing

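Of 64 recomputed summary values, 52 stayed within their limits and 12 moved. Among the other recomputed values, 210 stayed and 32 moved. After thinning to 2000 UMIs, 17 of these other values stayed and 10 moved. The count of members lower in E2 in CCR7 DCs was 8 of 10 measured, and 4 of 10 under the median scaling. It was 6 of 10 without the richest cell, and 7 of 10 with 1 more gate marker, with clusters or without the shared barcodes. In cDC1 it was 4 of 5, and 1 of 1 after thinning to 2000 UMIs and 7 of 9 with no minimum of UMIs. It was 3 of 5 without doublet removal or with 3 times as many doublets removed. With 1 more gate marker, under the median scaling or without the richest cell it was also 3 of 5. In cDC2 it was 8 of 8, and 5 of 5 after thinning and 9 of 9 with no minimum. It was 6 of 7 with 3 times as many doublets removed, and 7 of 8 under the median scaling or without the richest cell. In pDCs it was 2 of 4, and 1 of 3 with 3 times as many doublets removed, with 1 more gate marker, with clusters or without the richest cell, 0 of 2 after thinning and 4 of 8 with no minimum. The share of dendritic cells in the CCR7 DC gate was 35.4% in E2 and 52.6% in Placebo after thinning before gating, and its order was the same under the 5 alternatives run. Il12b in CCR7 DCs stayed higher in E2 under all 9 alternatives run, with log2 differences of 1.04 to 1.67. Il4i1 in CCR7 DCs changed sign, to 0.07 with 1 more gate marker, 0.20 after thinning and 0.06 under the median scaling, and Cd40 became 0.15 without the shared barcodes and 0.07 without the richest cell, Fscn1 0.05 under the median scaling, Socs2 -0.39 after thinning and Apol7c 0.40 without the richest cell. The causes were not tested. Depth limits the low genes of the small pDC and Placebo cDC1 gates. No paired analysis was possible because each group held 1 library, and leaving out a replicate was not possible for the same reason.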
